A study of Rattus norvegicus with 9 samples.

Results

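The cytochrome P450 and flavin-containing monooxygenase genes of the rat kidney were taken as all gene symbols that begin with Cyp or Fmo and a number, leaving out 11 P450 genes of arachidonic acid, vitamin D and cholesterol metabolism. Reported here are 61 genes of this kind among the 19367 in the deposited table, 56 of them Cyp and 5 Fmo. Kidney RNA had been sequenced in 3 groups of 3 libraries. WKY were Wistar-Kyoto rats, the normotensive strain, and SHR were spontaneously hypertensive rats; both received distilled water by mouth. Treated SHR received dapagliflozin, an inhibitor of the sodium-glucose transporter SGLT2, at 10 mg/kg per day for 8 weeks. All rats were 3 months old at the start. The groups follow the sample titles, since the strain entry reads Wistar-Kyoto for every sample, and the treatment entry names saline where the protocol names water. Nothing in the labels ties a library to an animal, so p-values measure only the spread between these libraries.

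Cytochrome P450 enzymes are haem proteins that insert 1 atom of oxygen into drugs, toxins, steroids, retinoids and fatty acids, using electrons that P450 oxidoreductase passes on from NADPH. Flavin-containing monooxygenases oxygenate the nitrogen and sulphur atoms of soft nucleophiles such as amines and thioethers, with a bound flavin in place of haem. The liver is the main site of both, and in the kidney the proximal tubule, above all its straight last segment, carries most of the xenobiotic-oxidizing activity.

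Levels are given in FPKM, which scales the reads of a gene by its length and by the size of the library, so that levels of different genes can be compared. The summed FPKM of a library lay between 564000 and 590000. The deposited values carry no read counts, so the depth is unknown. The value of a single read in 12 to 18 low genes per library put the relative depth between 0.944 and 1.056 of the median library. Only genes with nearly equal non-zero values across libraries were used, so a larger difference in depth could not have shown. The kidney label was checked against defining genes. The collecting duct channel Aqp2 was at 190.79 to 1168.45 FPKM and the thick limb transporter Slc12a1 at 103.66 to 362.89 FPKM. The 8 hepatocyte markers summed to 0.98 to 2.1 FPKM in every library, with albumin at 0.04 to 0.45 FPKM. Treated 2 and treated 3 stood apart in the 6 markers of the late proximal tubule, with list means of 6.23 and 6.52 on the log2(FPKM + 1) scale against 8.17 in treated 1 and 7.73 to 8.77 in the other 6 libraries. The general proximal list summed to 4160 FPKM in treated 3 against 7800 to 10200 in the other libraries, and the early proximal list mean was lowest in treated 1, at 3.53. Collecting duct markers summed to 278 to 531 FPKM in WKY, 676 to 772 in SHR and 931 to 1710 in treated SHR. Intercalated cell markers (472 to 642, 721 to 1150 and 1010 to 1700 FPKM) and distal convoluted markers (537 to 1020, 740 to 1020 and 1020 to 2020) were highest in treated 2 and 3, and podocyte markers summed to 137 to 337, 334 to 540 and 358 to 612. Apart from the late proximal and podocyte lists, which enter a segment score below, the part of these lists in the results was not tested. In whole-kidney RNA, fewer cells of a type and less RNA per cell cannot be told apart.

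The kidney profile was led by flavin monooxygenases and by P450s of the Cyp2 and Cyp4 families. Of the 61 genes, 28 reached 1 FPKM in at least 3 libraries and were tested, among 13127 genes tested in all. The 5 highest (Fmo1, Cyp4f1, Cyp2e1, Fmo4 and Cyp2d5) held 62.9% of the summed FPKM of all 61. By role, 12 of 22 Cyp2 genes, 5 of 12 Cyp4 genes, 4 of 5 Fmo genes and 4 of 6 bile acid and sterol P450 genes were tested. Of the steroid hormone P450s 1 of 5 was tested, and of the retinoic acid hydroxylases 1 of 3. Neither of the 2 Cyp1 genes nor any of the 5 Cyp3a genes was tested.

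**Figure D1:**
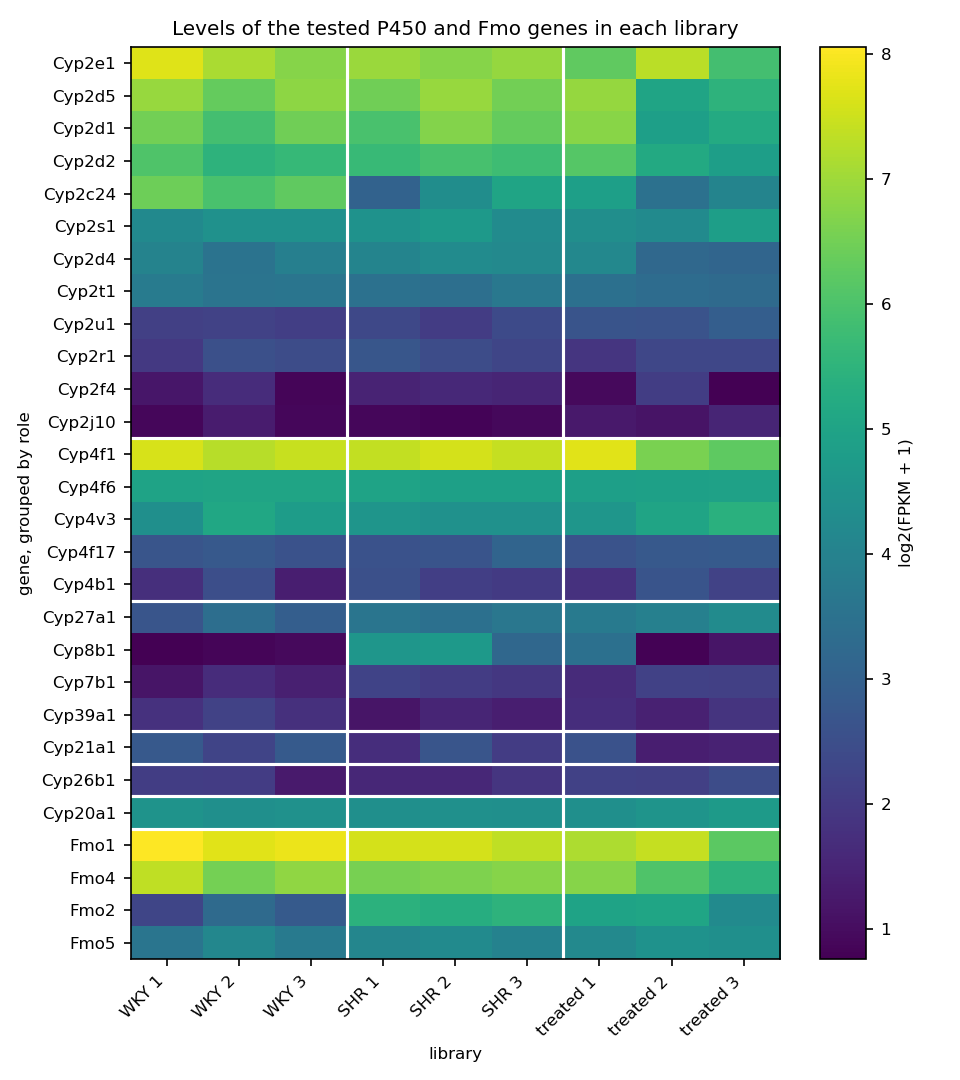
Levels of the 28 tested genes (rows, grouped by role) in the 9 libraries (columns), coloured by log2(FPKM + 1). Fmo1 and Cyp4f1 are the brightest rows, Fmo2 and Cyp8b1 are dark in the 3 WKY libraries, and the Cyp2d rows darken in treated 2 and treated 3.

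Fmo1, the flavin monooxygenase typical of kidney in many mammals, had the highest mean of the 61. Its level was 265.78, 209.73 and 228.37 FPKM in WKY 1 to 3, 193.01, 192.88 and 163.73 in SHR 1 to 3, and 140.76, 170.56 and 72.93 in treated 1 to 3. The lowest Fmo1 value was in treated 3, and every WKY library lay above every SHR library. Fmo4 was at 164.90, 91.79 and 114.50 FPKM in WKY, 94.27, 98.65 and 105.02 in SHR, and 105.66, 65.13 and 43.81 in treated SHR. For Fmo4, treated 1 lay above all 3 untreated SHR libraries and treated 2 and 3 below all 3. In the RefSeq gene order, Fmo4, Fmo1, Fmo2 and Fmo6 follow each other on 1 chromosome, while Fmo5 stands elsewhere.

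Cyp4f1, an omega-hydroxylase of leukotrienes and fatty acids, was the highest P450. It stood at 195.46, 152.49 and 172.66 FPKM in WKY, 167.76, 190.24 and 169.06 in SHR, and 210.16, 96.26 and 74.73 in treated SHR. Its neighbour Cyp4f6 was the steadiest of the 10 highest genes, at 30.94, 31.25 and 31.66 FPKM in WKY, 30.83, 28.93 and 29.19 in SHR, and 28.64, 28.95 and 29.89 in treated SHR. The libraries that were low for Cyp4f1 were not low for Cyp4f6. How reads were divided among the related Cyp4f genes is not given in the sources used here, so single levels are uncertain; the 9 reported here summed to 232, 191 and 210 FPKM in WKY, 206, 225 and 207 in SHR, and 245, 133 and 112 in treated SHR. Cyp2e1, which oxidizes ethanol and small solvents, was at 205.44, 138.64 and 105.45 FPKM in WKY, 124.70, 105.01 and 118.12 in SHR, and 76.12, 157.54 and 57.32 in treated SHR. It was high in treated 2, a library in which Fmo4 and Cyp4f1 were low. Cyp4v3, a fatty acid omega-hydroxylase, was at 19.89, 33.24 and 26.49 FPKM in WKY, 22.84, 20.94 and 20.85 in SHR, and 23.24, 31.58 and 41.36 in treated SHR, with the WKY range overlapping both others.

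The Cyp2d genes, relatives of the human debrisoquine hydroxylase CYP2D6, are 5 neighbours on 1 chromosome. Cyp2d5 was at 120.22, 80 and 112.07 FPKM in the WKY group, 87.22, 122.25 and 90.59 in SHR, and 119.49, 31.69 and 43.69 in treated SHR. Cyp2d1 was at 89.33, 57.33 and 87.21 FPKM in WKY, 61.83, 102.57 and 79.26 in SHR, and 107.76, 28.60 and 35.96 in treated SHR. Cyp2d2 was at 65.76, 43.31 and 49.22 FPKM in WKY, 50.02, 60.26 and 53.93 in SHR, and 69.63, 35.79 and 28.08 in treated SHR. Cyp2d4 was at 15.18, 10.72 and 13.98 FPKM in WKY, 15.47, 18.44 and 17.20 in SHR, and 17.10, 8.36 and 7.76 in treated SHR. All of these were lowest in treated 2 and 3, below every other library. Cyp2d3, which lies between Cyp2d1 and Cyp2d2, reached at most 0.68 FPKM in any library. These genes are close copies, and how reads of 50 bases were divided among them is not given in the sources used here, so the level of any single one is uncertain; their sum is less so. That sum was 291, 192 and 263 FPKM in WKY, 215, 304 and 242 in SHR, and 315, 104 and 116 in treated SHR.

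The promoters of the Cyp2d genes are shown because Cyp2d1, Cyp2d2, Cyp2d4 and Cyp2d5 were lowest in the same 2 libraries, while Cyp2d3 was nearly silent beside them. That of Cyp2d4 is not printed, since it held none of the motifs searched. The 250 bases before each annotated start are from RefSeq (GRCr8, minus strand of the chromosome): chr7:115793431-115793680 for Cyp2d1, chr7:115784488-115784737 for Cyp2d5, chr7:115802143-115802392 for Cyp2d3 and chr7:115819282-115819531 for Cyp2d2. Each is written 5′ to 3′ in the direction of its gene, and capitals mark the motifs named below.
Cyp2d1: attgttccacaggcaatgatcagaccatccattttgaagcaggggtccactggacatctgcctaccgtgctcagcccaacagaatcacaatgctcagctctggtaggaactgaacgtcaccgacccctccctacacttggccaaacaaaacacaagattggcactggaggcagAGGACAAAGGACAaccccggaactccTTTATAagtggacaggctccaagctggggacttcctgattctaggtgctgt
Cyp2d5: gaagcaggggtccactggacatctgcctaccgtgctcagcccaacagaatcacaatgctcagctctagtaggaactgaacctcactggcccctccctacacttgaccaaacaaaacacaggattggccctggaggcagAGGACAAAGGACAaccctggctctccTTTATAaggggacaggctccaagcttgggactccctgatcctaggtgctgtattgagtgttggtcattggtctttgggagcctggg
Cyp2d3: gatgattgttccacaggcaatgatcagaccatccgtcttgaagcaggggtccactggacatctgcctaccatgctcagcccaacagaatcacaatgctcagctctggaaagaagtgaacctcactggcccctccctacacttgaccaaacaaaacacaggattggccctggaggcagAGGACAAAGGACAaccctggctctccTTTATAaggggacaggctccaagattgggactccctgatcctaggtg
Cyp2d2: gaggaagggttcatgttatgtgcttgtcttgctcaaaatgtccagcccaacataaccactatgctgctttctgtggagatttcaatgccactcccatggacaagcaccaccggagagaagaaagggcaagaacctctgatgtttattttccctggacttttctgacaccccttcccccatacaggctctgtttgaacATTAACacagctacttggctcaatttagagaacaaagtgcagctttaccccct

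Over the full table entries of 300 bases, which add 50 bases after the start, the best local alignment of Cyp2d1 and Cyp2d5 had 246 identical of 264 columns (93.2%), and that of Cyp2d3 and Cyp2d5 251 of 261 (96.2%). Cyp2d1 and Cyp2d2 aligned over only 140 columns, of which 64.3% were identical, and the entry of Cyp2d4 aligned with Cyp2d1 over 15 columns and with Cyp2d5 over 27. The motifs searched on both strands were AGGTCA (nuclear receptor half-site), GTTAAT (HNF1 half-site), GCGTG (aryl hydrocarbon receptor core), TATAAA (the box of many core promoters) and, added after the sequences had been read, the direct repeat AGGNCANAGGNCA, which overlaps AGGTCA where its free base is T. The direct repeat was found in Cyp2d1 at -77 to -65, in Cyp2d3 at -73 to -61 and in Cyp2d5 at -112 to -100, counting the annotated start as 0. It is held by 0.409% of 27365 promoters, and these 3 near-identical entries do not count as separate finds of it. TATAAA, on the minus strand of the gene, followed it in each of the 3 at -51 to -46, -47 to -42 and -86 to -81, and 14.2% of promoters hold it. Cyp2d2 held neither, and had GTTAAT on the minus strand at -53 to -48, a motif in 7.38% of promoters. The near-silent Cyp2d3 held the same capitals as the abundant Cyp2d1 and Cyp2d5. A promoter entry existed for 24 of the 28 tested genes; AGGTCA was in 9 of the 24 (15.7% of all promoters), GCGTG in 9 (31.2%), TATAAA in 5, GTTAAT in 2 and the direct repeat in 2.

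The first comparison asked how the untreated strains differ. In SHR, 2 of the 28 tested genes differed from WKY by limma with Benjamini-Hochberg adjustment over all genes tested (adjusted p under 0.05, two-sided), and both rose: Fmo2 and Cyp8b1. The background was 2.96% of all tested genes called, 1.84% higher and 1.12% lower. Over all genes that split was 241 to 147 as deposited, 202 to 205 under quantile scaling and 221 to 207 under median-of-ratios scaling, and the same 2 genes were called under each. The median log2 change of the 28 genes was 0.04, against 0.07 for all genes. The groups did not overlap for 5 genes that were higher and 4 that were lower in SHR, 9 of 28 in all, against 28.4% of all genes. The 5 were Fmo2, Cyp8b1, Cyp27a1, Cyp7b1 and Cyp2d4, and the 4 were Cyp2c24, Cyp39a1, Fmo1 and Cyp4f6.

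Fmo2 (gene ID 246245), the monooxygenase best known from lung, had levels of 3.87, 8.77 and 6.04 FPKM in WKY 1 to 3, against 43.06, 38.59 and 43.77 FPKM in SHR 1 to 3. Every SHR library lay far above every WKY library. The mean rose 6.71-fold, from 6.23 ± 2.46 to 41.8 ± 2.81 FPKM (SD, n = 3), a log2 change of 2.62 ± 0.27 (SE, on the log2(FPKM + 1) scale as for all changes below; limma adjusted p = 0.00144). It was called without any single library. Its neighbour Fmo6, a gene below the filter, was at 0.26, 0.04 and 0.04 FPKM in WKY and 0.89, 0.92 and 1.60 in SHR. Without a filter on low values, where 1.99% of 19028 genes were called, Fmo6 also rose, by 0.93 (limma adjusted p = 0.0411). Fmo1, on the other side of Fmo2, had the lower mean in SHR, 183 ± 16.9 against 235 ± 28.5 FPKM (log2 change -0.35, limma adjusted p = 0.488), and Fmo4 likewise did not pass. Fmo5 stood at 11.18, 16.75 and 12.39 FPKM in WKY and 16.14, 17.92 and 15.08 in SHR, ranges that overlap.

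The bile acid and sterol P450s set the other rise. Cyp8b1 (gene ID 81924), the sterol 12-alpha-hydroxylase that sets the ratio of cholic to chenodeoxycholic acid in liver, had levels of 0.69, 0.81 and 0.92 FPKM in WKY 1 to 3, against 23.08, 25.25 and 8.19 FPKM in SHR 1 to 3. SHR 3 was the lowest of its group and still above every WKY library. The means were 0.807 ± 0.115 and 18.8 ± 9.29 FPKM, and the log2 change was 3.32 ± 0.65 (limma adjusted p = 0.0318). The call was lost without WKY 1, WKY 2, WKY 3, SHR 1 or SHR 2, and with no filter on low values; over all alternatives the adjusted p ran from 0.00208 to 0.126. Cyp7a1, the first enzyme of the classical bile acid pathway, reached at most 0.02 FPKM, and the hepatocyte markers were near 0 in SHR as in WKY.

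The other tested genes of this class had separate ranges without passing the test. Cyp27a1, the mitochondrial sterol 27-hydroxylase, was at 5.40, 9.46 and 6.71 FPKM in WKY and 11.08, 9.89 and 11.55 in SHR (log2 change 0.56, limma adjusted p = 0.168). Cyp7b1, an oxysterol 7-alpha-hydroxylase, was at 1.24 to 2.19 FPKM in WKY and 2.86 to 3.64 in SHR (0.65, limma adjusted p = 0.103; called without treated 1). Cyp39a1, which hydroxylates 24-hydroxycholesterol, was the one with a lower mean in SHR, at 2.43 to 3.60 FPKM in WKY and 1.27 to 1.85 in SHR (-0.57, limma adjusted p = 0.129).

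Cyp2c24 (gene ID 499353), a member of the 2C family next to Cyp2c11 in the gene order, had the largest lower value in SHR. It was at 85.93, 61.28 and 77.29 FPKM in WKY and 7.29, 19.04 and 31.37 in SHR, with no overlap. The mean was 3.89-fold lower, 19.2 ± 12 against 74.8 ± 12.5 FPKM, and the log2 change was -2.10 ± 0.49. This missed the threshold (limma adjusted p = 0.0604). It passed without SHR 3 or without treated 1, and over all alternatives the adjusted p ran from 0.0363 to 0.201. Cyp2d1, Cyp2d2, Cyp2d5, Cyp2e1 and Cyp4f1 had overlapping ranges in the strains, Cyp2d4 and Cyp4f6 had ranges set apart by a narrow gap, and none of these passed. Their log2 changes lay between -0.32 for Cyp2e1 and 0.35 for Cyp2d4. The small values of Cyp2d1, Cyp2d2 and Cyp4f1 (0.06, 0.07 and 0.02) changed sign under another scaling, so no direction is given for them.

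**Figure D2:**
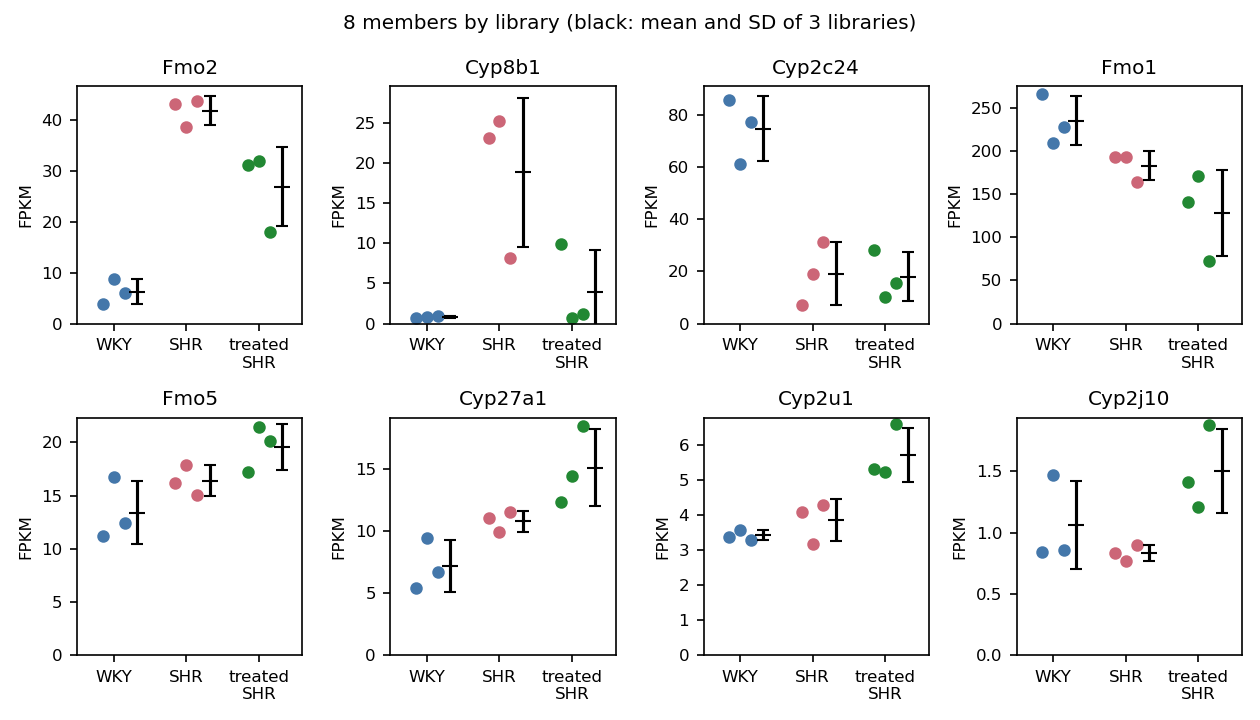
FPKM of 8 genes by library (points) with the mean and SD of 3 libraries per group (black; the lower SD bar of Cyp8b1 in treated SHR is clipped at 0). Fmo2 lies above 38 FPKM in untreated SHR and below 9 in WKY, Cyp2c24 lies above 61 FPKM only in WKY, and Cyp8b1 is near 1 FPKM in WKY and in treated 2 and 3.

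The second comparison asked what dapagliflozin changed in SHR. None of the 28 genes passed, as none of the 13127 genes did (0% called by limma at an adjusted p of 0.05). At an unadjusted p under 0.05, limma gave 1997 of all genes and 7 of the 28, 3 of them lower. The group mean was lower in treated SHR for 18 of the 28 (64.3%, against 42.6% of all genes), with a median log2 change of -0.12 against 0.04. The groups did not overlap for 6 genes, 5 higher and 1 lower, against 19% of all genes.

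The most abundant genes had the lower values. Of the 28, all 7 with a mean of at least 50 FPKM (a limit set after the values were seen) had a lower mean in treated SHR, with a median log2 change of -0.60. They were Fmo1, Fmo4, Cyp4f1, Cyp2e1, Cyp2d5, Cyp2d1 and Cyp2d2. For none did the groups separate, and the smallest limma adjusted p among them was 0.336. Cyp2d5, Cyp2d1 and Cyp2d2 are close copies and do not count as separate observations. The share with a lower mean among all genes at this level was not computed, so whether the 7 differ from them was not tested.

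The treated libraries disagreed with each other. Of the 28 genes, 11 in treated 2 and 13 in treated 3 were below the range of untreated SHR, against 8 in treated 1. Above that range were 10 in treated 1, 10 in treated 2 and 9 in treated 3. The same counts were not made over all genes, so whether they are particular to the 28 was not tested. Cyp8b1 was at 9.87 FPKM in treated 1 and at 0.73 and 1.24 in treated 2 and 3, a ratio of 10.0 between treated 1 and the mean of the other two. The same ratio was 3.34 for Cyp2d1, 3.17 for Cyp2d5, 3.05 for Cyp21a1, 2.46 for Cyp4f1, 2.2 for Cyp2c24 (within the range of untreated SHR in all 3), 2.18 for Cyp2d2 and 2.12 for Cyp2d4. The 6 late proximal markers moved with these genes, summing to 3860 FPKM in treated 1 and 1080 and 1170 in treated 2 and 3, with the transporter Slc7a13 at 838.76, 109.94 and 196.04 FPKM. Their early proximal counterparts did not have that order, with list means of 3.53, 5.18 and 4.17 on the log2 scale.

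**Figure D3:**
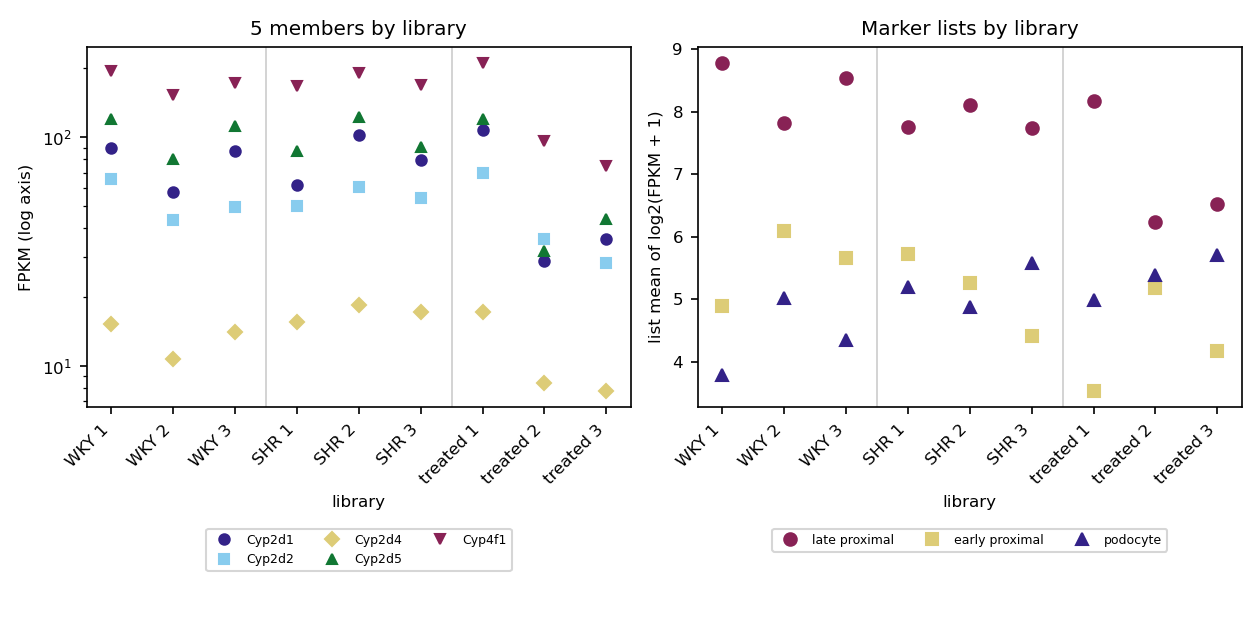
Left, FPKM (log axis) of 5 genes in each library; right, the mean log2(FPKM + 1) of the late proximal, early proximal and podocyte marker lists in the same libraries. The 5 genes and the late proximal list are lowest in treated 2 and treated 3, while treated 1 lies within or above the untreated range for them. Treated 1 is the highest library for Cyp2d1, Cyp2d2 and Cyp4f1, and the lowest for the early proximal list.

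Without treated 1, 6 of the 28 genes were called, all lower in treated SHR, against 3.22% of all genes called lower. They were Cyp2d1 (log2 change -1.28), Cyp2d2 (-0.76), Cyp2d4 (-0.99), Cyp2d5 (-1.39), Cyp4f1 (-1.04) and Cyp8b1 (-3.19), with limma adjusted p-values from 0.0219 to 0.0472 and 2 treated libraries left. The Cyp2d genes among them may share reads and do not count as separate observations. Leaving out any other single library called none of the 28. With all 9 libraries and a segment score (late proximal minus podocyte list mean) as a covariate, none of the 28 was called. The log2 changes of these 6 were then -0.15 for Cyp2d1, -0.02 for Cyp2d2, -0.33 for Cyp2d4, -0.30 for Cyp2d5, -0.22 for Cyp4f1 and -1.68 ± 0.51 (SE) for Cyp8b1. The score differs between the groups as well as within them, so the treatment and the segment markers cannot be told apart here.

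**Figure D4:**
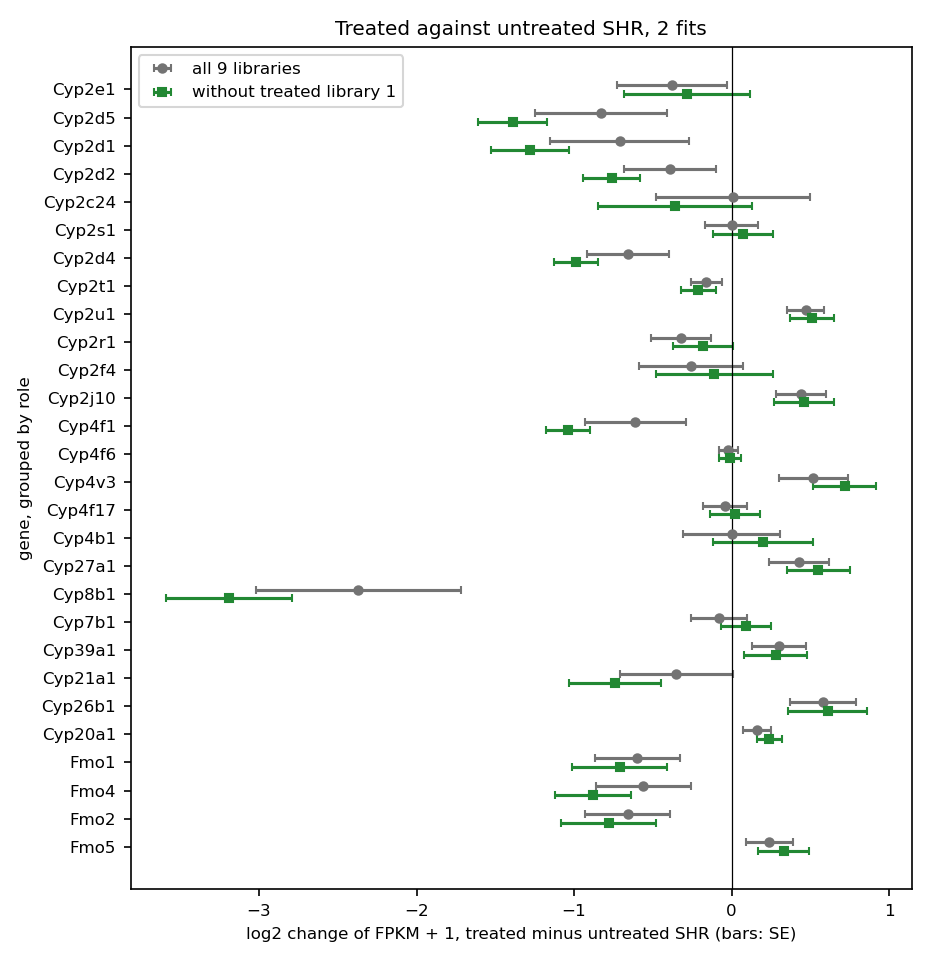
Log2 change of each tested gene in treated against untreated SHR, with its SE, from all 9 libraries (grey circles) and without treated library 1 (green squares). The Cyp2d genes, Cyp4f1 and Cyp8b1 move further left without that library, whereas Cyp2u1, Cyp2j10 and Cyp4f6 hardly move.

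The smallest unadjusted p-values, none of which passed, belonged to Cyp2u1, Cyp8b1 and Cyp2j10. Cyp2u1 (gene ID 310848), which hydroxylates long-chain fatty acids, was at 4.08, 3.17 and 4.29 FPKM in SHR and 5.29, 5.22 and 6.60 in treated SHR. The ranges did not overlap, and all 3 treated libraries were higher (log2 change 0.47 ± 0.12, limma adjusted p = 0.281). Cyp8b1, at 23.08, 25.25 and 8.19 against 9.87, 0.73 and 1.24 FPKM, overlapped through SHR 3 and treated 1 (-2.37 ± 0.65, limma adjusted p = 0.281). Cyp2j10, of the epoxygenase family 2J, was low throughout, at 0.83, 0.77 and 0.90 FPKM in SHR and 1.41, 1.21 and 1.88 in treated SHR (0.44 ± 0.16, limma adjusted p = 0.292). Other genes with all 3 treated libraries above untreated SHR were Cyp27a1 (9.89 to 11.55 against 12.37 to 18.49 FPKM), Cyp4v3 (20.85 to 22.84 against 23.24 to 41.36) and Cyp26b1 (1.96 to 2.70 against 3.37 to 4.45), and none passed. Fmo2 was the one gene with all 3 treated libraries below, at 31.06, 31.85 and 17.93 against 38.59 to 43.77 FPKM (-0.66 ± 0.27, limma adjusted p = 0.314).

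The third comparison set treated SHR against WKY, which differ in strain and drug together, and it shares its treated libraries with the second and its WKY libraries with the first. Of the 28 genes 6 were called, 4 higher and 2 lower, where 22.9% of all genes were called, 16.8% higher and 6.09% lower. The groups did not overlap for 9 of the 28, against 38.6% of all genes. Over all genes the calls split 2211 higher to 799 lower as deposited, 1581 to 1057 under quantile scaling and 1448 to 1222 under median-of-ratios scaling, and those of the 28 genes 4 to 2, 3 to 3 and 3 to 4. The median log2 change of the 28 was -0.04 against 0.11 for all genes, -0.14 against 0.01 under quantile scaling and -0.15 against -0.01 under median-of-ratios scaling.

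Fmo2 was at 31.06, 31.85 and 17.93 FPKM in treated SHR against 3.87 to 8.77 in WKY, so it stood above WKY in both SHR groups (1.97 ± 0.27, limma adjusted p = 0.00434). Cyp27a1 (gene ID 301517) was at 12.37, 14.43 and 18.49 FPKM against 5.40, 9.46 and 6.71. It rose 2.10-fold, with untreated SHR between the groups (0.99 ± 0.19, limma adjusted p = 0.013). Cyp2u1 was at 5.29, 5.22 and 6.60 FPKM against 3.37, 3.57 and 3.29, a rise of 1.67-fold (0.60 ± 0.12, limma adjusted p = 0.0155). Fmo5 (gene ID 246248), which can act as a Baeyer-Villiger oxidase, was at 17.20, 21.45 and 20.14 FPKM against 11.18, 16.75 and 12.39 (0.53 ± 0.15, limma adjusted p = 0.0351).

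Of the 2 genes that fell, Cyp2c24 was at 28.37, 10.14 and 15.62 FPKM against 85.93, 61.28 and 77.29 in WKY. It was 4.15-fold lower, close to its level in untreated SHR (-2.09 ± 0.49, limma adjusted p = 0.021). Fmo1 (gene ID 25256) was at 140.76, 170.56 and 72.93 FPKM against 265.78, 209.73 and 228.37, a mean 1.83-fold lower (-0.95 ± 0.27, limma adjusted p = 0.0375). Fmo1 and Fmo2, neighbours in the gene order, went opposite ways. Cyp8b1 did not pass, at 9.87, 0.73 and 1.24 against 0.69 to 0.92 FPKM (0.95 ± 0.65, limma adjusted p = 0.304). Cyp7b1 missed the threshold narrowly, at 2.15, 3.52 and 3.38 FPKM against 1.24, 2.19 and 1.65 (0.57 ± 0.18, limma adjusted p = 0.0504; 0.0115 to 0.82 over all alternatives).

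Only Fmo2 kept its call without each single library; the calls of Cyp27a1 (without WKY 3), Cyp2c24 (WKY 1, WKY 3, treated 2 or treated 3), Cyp2u1 (WKY 1, WKY 3 or treated 3), Fmo5 (WKY 1, WKY 3, SHR 1, treated 2 or treated 3) and Fmo1 (WKY 1, WKY 3 or any SHR library) were lost. Those of Fmo5 and Fmo1 were also lost without the filter, under quantile scaling and with only the 2 groups compared, and that of Fmo5 under median-of-ratios scaling. Without treated 1, 15 of the 28 were called, where 36.5% of all genes were, and with the segment score none was, where 1.47% were. The 15 include Cyp2d1, Cyp2d2, Cyp2d4 and Cyp2d5, which do not count as separate observations.

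**Figure D5:**
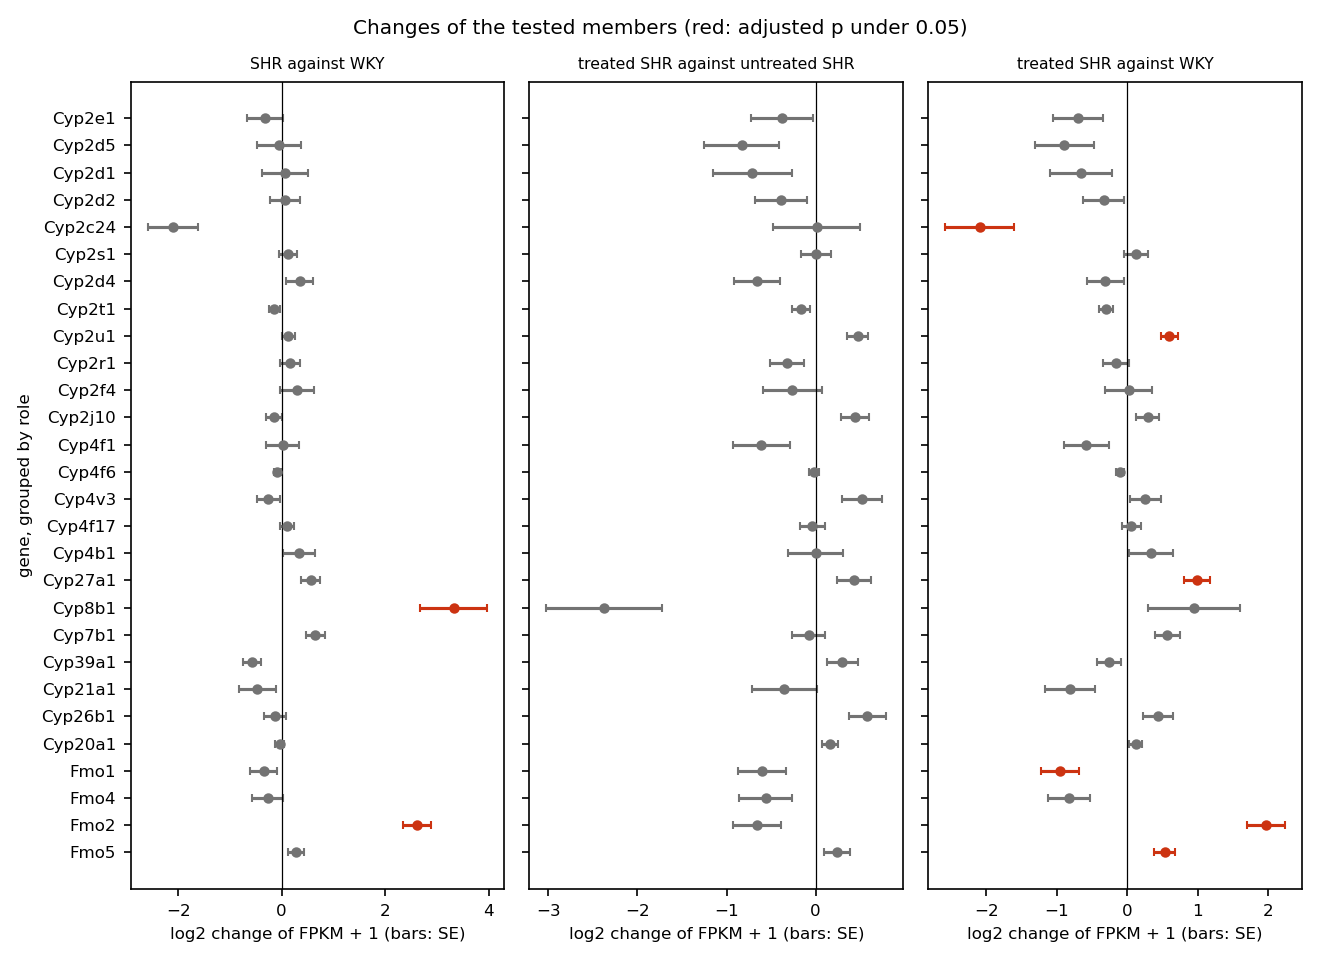
Log2 change of FPKM + 1 with its SE for the 28 tested genes in the 3 comparisons, red where the adjusted p was under 0.05. Fmo2 and Cyp8b1 are red in SHR against WKY, no gene in treated against untreated SHR, and 6 genes in treated SHR against WKY.

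The remaining tested genes passed in no comparison with all libraries. Cyp21a1, the steroid 21-hydroxylase, was at 5.94, 3.75 and 6.08 FPKM in WKY, 2.28, 5.46 and 3.18 in SHR, and 5.07, 1.59 and 1.74 in treated SHR. Of the adrenal cortex list, Mrap, a melanocortin receptor partner, was at 20.99, 19.18 and 18.05 FPKM in WKY, 24.15, 39.31 and 29.65 in SHR, and 35.39, 15.71 and 13.76 in treated SHR. Within SHR and within treated SHR the library highest for Cyp21a1 was also highest for Mrap. In WKY it was not: WKY 3 was highest for Cyp21a1 and lowest for Mrap. In the same list Mc2r was at most 0.08 FPKM, Nr5a1 at most 0.07, Akr1b7 at most 0.05 and Star at most 0.85, and the part of adrenal RNA in the Cyp21a1 level was not tested. Cyp26b1, which clears retinoic acid, was at 1.46 to 3.20 FPKM in WKY, 1.96 to 2.70 in SHR and 3.37 to 4.45 in treated SHR. Cyp2s1 and the orphan Cyp20a1 had means of 21.1 FPKM each over the 9 libraries, Cyp2t1 10.5, Cyp4f17 5.73, Cyp2r1, a vitamin D 25-hydroxylase, 4.09, Cyp4b1 3.46 and Cyp2f4 1.64.

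Of the 33 genes below the filter, 30 stayed under 1 FPKM in every library. Among these 30, the 5 Cyp3a genes reached at most 0.65 FPKM (Cyp3a9). Cyp2b1 reached at most 0.18 FPKM, Cyp2b2 0.05, Cyp2c6v1 0.34 and Cyp2c22 0.05, and Cyp2c7 was listed at 0 throughout. The steroid-forming Cyp11a1, Cyp11b2, Cyp17a1 and Cyp19a1 reached at most 0.09, 0.26, 0.78 and 0.67 FPKM. Cyp4f5 and Fmo6 touched at most 1.51 and 1.60 FPKM. The exception was Cyp1a1, the inducible target of the aryl hydrocarbon receptor, at 0.52, 0.51 and 22.38 FPKM in the WKY group, while the 6 SHR libraries had at most 0.06 FPKM. The high value was in WKY 3 alone, and with no filter Cyp1a1 did not pass (limma adjusted p = 0.353 in SHR against WKY). Other targets of the receptor were not highest there: in WKY 3 the repressor Ahrr was at 0.21 FPKM (0.11 to 0.48 over all libraries), Tiparp at 5.47 (5.47 to 9.59), Nqo1 at 6.84 (4.81 to 7.79), Aldh3a1 at 0.10 (0 to 0.14) and Ugt1a6 at 54.55 (35.08 to 59.50).

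The partners of these enzymes were read from lists of genes that pass electrons to P450s, switch them on, or act on their products. Of 11 tested electron donors none was called in SHR against WKY or in treated against untreated SHR. In treated SHR against WKY, where 22.9% of all tested genes were called, 1 of the 11 rose and 1 fell. Cyb5r1, a cytochrome b5 reductase, rose from 20.6 ± 0.621 to 27.7 ± 2.42 FPKM (limma adjusted p = 0.019). Pgrmc1, a haem-binding partner of P450s, fell from 285 ± 29.0 to 181 ± 49.5 FPKM (limma adjusted p = 0.0253). P450 oxidoreductase, Por, ranged from 49.64 to 65.96 FPKM and was called in no comparison. Of 19 tested receptors and partners none was called in the first and second comparisons. In the third, where 22.9% of all tested genes were called, 5 of the 19 were: Nfe2l2, Nr0b2 and Rxra rose and Nr1h3 and Nr2f2 fell. Nfe2l2, the regulator of the antioxidant response, went from 57.1 ± 1.91 to 93.0 ± 17.3 FPKM (0.68, limma adjusted p = 0.0136), and Nr0b2, the bile acid-induced repressor SHP, from 4.30 ± 0.803 to 9.29 ± 3.88 (0.90, limma adjusted p = 0.0303). Each of these 7 calls was lost without WKY 3, and with the segment score no gene of either list was called.

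Among 38 tested conjugation and hydrolysis enzymes, 4 rose and 2 fell in SHR against WKY, where 1.84% of all genes rose and 1.12% fell. The carbonyl reductases Cbr1 and Cbr3 were listed at 0 in WKY 1, 2 and 3; in SHR Cbr1 lay between 8.94 and 10.75 FPKM and Cbr3 between 3.44 and 4.85 FPKM. Ugt2b7, a glucuronosyltransferase, rose from 1.56 ± 0.219 to 11.1 ± 4.74 FPKM (2.17, limma adjusted p = 0.0044), and Ces2g, a carboxylesterase, fell from 56.7 ± 5.69 to 11 ± 1.62 (-2.26, limma adjusted p = 0.000337). These 4 calls held without each single library. Those of Inmt (1.83) and Glyatl2 (-1.23) were lost without any one of the 6 WKY and SHR libraries. In treated against untreated SHR none was called. There 32 of the 38 had a lower mean (84.2%, against 42.6% of all genes), and the median log2 change was -0.39 against 0.04. The part of the late proximal shift of treated 2 and 3 in this was not tested. In treated SHR against WKY 5 rose and 9 fell (16.8% and 6.09% of all genes), among the latter Ugt2b35 (167 ± 33.6 to 72.3 ± 19.4 FPKM) and Glyatl1 (7.21 ± 1.59 to 2.47 ± 1.07); without treated 1 the counts were 4 and 17 (36.5% of all genes called), and with the segment score 3 and 1 (1.47%).

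Of 15 tested haem genes none was called in the first and second comparisons. In treated SHR against WKY Fech, which inserts the iron, and Hmox1, which breaks haem down, rose, and Cpox and Blvra fell, 4 of 15 where 22.9% of all genes were called. Hmox1 went from 3.36 ± 1.29 to 8.32 ± 2.40 FPKM (1.11, limma adjusted p = 0.0238; lost without WKY 1 or treated 3). All 4 calls were lost with the segment score and with only the 2 groups compared. The calls of Cpox, Fech and Blvra were also lost without WKY 1, WKY 3, treated 2 or treated 3. That of Fech was lost too under a replicate block and both other scalings, and that of Blvra without SHR 1 or SHR 2 and with no filter. Of 17 tested retinoid genes, Crabp1, a retinoic acid-binding protein, was the one called in SHR against WKY, at 0.12 to 0.23 FPKM in WKY and 2.33 to 4.31 in SHR (1.83, limma adjusted p = 0.00879). Crabp1 was at 5.27, 8.99 and 12.68 FPKM in treated SHR, above every untreated library. It was not called in treated against untreated SHR, as no retinoid gene was, and 19% of all genes did not overlap there. In treated SHR against WKY 6 of the 17 rose and 2 fell (16.8% and 6.09% of all genes); without treated 1 the counts were 9 and 2 (36.5% of all genes called), and with the segment score 1 and 0 (1.47%).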

How the data were processed

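Kidney total RNA (Trizol) was read on a BGISEQ-500 with single 50-base ends, per the labels' protocols. The authors deposited 1 table of FPKM for 19367 genes in 9 libraries. HISAT2 2.0.4, Bowtie2 2.2.5 and Rnor_6.0 are listed in the submitters' processing notes, without their roles; which program computed FPKM, with which annotation and strand setting, is not given in the sources used here.

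From the deposited FPKM, log2(FPKM + 1) was tested with limma 3.58.1 (R 4.3.3; group means, intensity trend, 3 groups in 1 fit, 6 residual degrees of freedom, two-sided), with Benjamini-Hochberg adjustment over the 13127 genes with at least 1 FPKM in 3 libraries and calls at 0.05. The pseudocount understates changes of low genes. The code was tested on simulated data. No interval or floor is given, since counts are unknown. The genes, lists, tests and alternatives were chosen with earlier results of these data known. Genes with every library's value are those called, the 10 highest and, where none was called, the 3 with the smallest p; Cyp2d4, Fmo6, Crabp1, Cyp1a1 and other genes outside that rule were singled out after their values were seen. Items withheld for evaluation are not reported here. Deviations of same-numbered libraries correlated between -0.328 and 0.456, and those of differently numbered libraries between -0.532 and 0.327. The labels do not say that the numbers pair rats, and with 3 libraries a group these correlations cannot decide it. Promoters were matched by gene ID to RefSeq (GRCr8), aligned with Biopython 1.88. Alternatives were pseudocounts of 0.1 and 0.5, no filter, a filter at 5 FPKM, quantile and median-of-ratios scaling, a replicate block, a segment score, only the 2 groups compared, and leaving out each library.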

Additional observations from a re-analysis of the deposited data

How the results depend on the processing

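Of 861 recomputed log2 changes for the 48 results on named genes, 782 kept their direction and side of the threshold, 37 lost and 15 gained the call, and 27 changed sign, 0 of them among called results; the 8 called results kept their call in 107 of 144 recomputations. With another setting than leaving out a library, the sign changed in SHR against WKY for Cyp2d1 (-0.03), Cyp2d2 (-0.01) and Cyp4f1 (-0.06) under median-of-ratios scaling, for Cyp4f1 (-0.0) under quantile scaling, and for Cyp2d5 (0.65) and Fmo4 (0.20) with the segment score. In treated against untreated SHR it changed for Cyp2c24, to -0.04 under both scalings. In treated SHR against WKY it changed with the segment score for Cyp2d1 (0.64), Cyp2d2 (0.55), Cyp2d5 (0.35), Cyp4f1 (0.31), Cyp4v3 (-0.36) and Fmo4 (0.01).

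Leaving out 1 library at a time, the log2 change ran from -0.15 to 0.24 for Cyp2d1, -0.06 to 0.24 for Cyp2d2, -0.23 to 0.06 for Cyp2d5 and -0.07 to 0.11 for Cyp4f1 in SHR against WKY, and from -0.53 to 0.45 for Cyp2c24 and from -0.04 to 0.00 for Cyp4f6 in treated against untreated SHR.
The number of the 28 genes called ran from 1 to 4 in SHR against WKY, 0 to 6 in treated against untreated SHR and 1 to 15 in treated SHR against WKY; that of all genes ran from 167 to 626, 0 to 830 and 593 to 4791, against 388, 0 and 3010 with all libraries. The highest of each came without treated 1.
With the segment score the counts in treated SHR against WKY were 0 of the 28 and 193 of all genes, and with only the 2 groups compared 4 and 1026. The cause of these shifts was not tested. A replicate block left 2, 0 and 6 of the 28 called, as without it, and called 282, 1 and 2700 of all genes in the 3 comparisons. Cyp2d4 was called in SHR against WKY with the segment score (0.78, limma adjusted p = 0.0213; 0.0213 to 0.68 over all alternatives), and Cyp2t1 and Cyp4f6 were called lower in treated SHR against WKY under both other scalings. Depth limits what can be said of the 33 genes below the filter.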
